A study of Mus musculus with 2 samples.

Results

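The genes described here are 6 ligands of the epidermal growth factor (EGF) family and 3 of their receptors, measured in single liver cells of healthy and CCl4-injured mice. The ligands were Ereg, Areg, Hbegf, Btc, Tgfa and Nrg1, the receptors were Egfr, Erbb2 and Erbb3, and all 9 were found by Ensembl identifier among the 30406 genes common to both libraries. They were listed because of their known pairing as signal and receptor, and Ereg in injured mesenchymal cells was singled out from its UMI counts in these same libraries. The class levels below are therefore a description, with no test.

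EGF family ligands are made as membrane-anchored precursors, and metalloproteases, above all Adam17, cut them free at the cell surface. Epiregulin (Ereg), amphiregulin (Areg), heparin-binding EGF (Hbegf), betacellulin (Btc) and transforming growth factor alpha (Tgfa) bind the EGF receptor Egfr. Some of these ligands bind Erbb4 as well. Neuregulin 1 (Nrg1) binds Erbb3 and Erbb4. Erbb2 has no ligand of its own and serves as the partner of the other receptors, and Erbb3 has little kinase activity and signals through such a partner. In liver, Egfr is known as a major growth factor receptor of hepatocytes during regeneration.

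The study compared liver cells of healthy mice with those of mice given carbon tetrachloride (CCl4), a hepatotoxin that causes chronic fibrosis, by 10x Genomics 3' sequencing, with 1 library per group. Both groups carried Col1a2CreER:Rosa26tdTomato, in which an inducible Cre under the Col1a2 promoter, active in collagen-producing cells, labels cells with a red reporter, on the C57BL/6 background per the study's methods. The red reporter is not among the counted genes. The study's methods describe the mice of this genotype used for lineage tracing as young adults and the CCl4 injury as lasting several weeks, and the number of mice behind a library is not given in the sources used here. Per the study's methods CD45-positive cells were depleted, so immune cells were few by design, and the digestion and density gradient also set which cells were recovered. With 1 library per group no difference between the groups could be tested, and all intervals below are 95% intervals that cover counting error only.

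Filters left 5602 cells of the healthy library, with a median depth of 6784 UMIs, and 7314 of the CCl4 library, with 11876, and 8 barcodes occurred in both. A UMI is a tag that counts 1 captured RNA molecule. Cells were grouped into 26 clusters without the members and their pathway genes, and 17 clusters were named as class "-like" from marker genes. The libraries held largely different classes. Healthy cells were 55.0% endothelial-like, 22.3% cholangiocyte-like, 4.12% mesothelial-like and 2.80% hepatocyte-like, with 13 mesenchymal-like cells in all, while CCl4 cells were 42.8% mesenchymal-like, 12.8% mesothelial-like and 8.81% endothelial-like, with 8 hepatocyte-like and 20 cholangiocyte-like cells. The series text speaks of hepatocytes, but hepatocyte-like cells were a small minority in both libraries. The clusters left without a name took in 15.2% of healthy and 30.1% of CCl4 cells. Levels are given as CPM, the UMIs of a gene scaled to an equal total of all UMIs of a class, for classes of at least 50 cells in a library. Because each library counted 3' ends, CPM compares cell classes for 1 gene and not genes with each other.

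In the mouse genome (GRCm38.p6 coordinates of RefSeq), Ereg (chr5:91074617-91093649), Areg (chr5:91139599-91148432) and Btc (chr5:91357261-91402994) lie in a row on chromosome 5, beside epigen, Epgn (chr5:91027517-91035212). RefSeq promoters were matched for 5 of the 9 members (Areg, Btc, Tgfa, Egfr and Erbb2), with Hbegf left out of this step beforehand. Those of the 2 matched neighbours of Ereg are shown, 250 bases before to 50 after the start, on the gene's own strand, with motif matches in capitals:
Areg, chr5:91139349-91139648, plus strand: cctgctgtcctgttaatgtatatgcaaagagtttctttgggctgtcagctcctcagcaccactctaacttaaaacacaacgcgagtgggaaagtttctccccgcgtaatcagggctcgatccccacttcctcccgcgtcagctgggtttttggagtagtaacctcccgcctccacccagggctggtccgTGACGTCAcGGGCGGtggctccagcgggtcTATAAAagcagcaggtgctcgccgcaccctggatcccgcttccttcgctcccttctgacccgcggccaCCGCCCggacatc
Btc, chr5:91402945-91403244, minus strand: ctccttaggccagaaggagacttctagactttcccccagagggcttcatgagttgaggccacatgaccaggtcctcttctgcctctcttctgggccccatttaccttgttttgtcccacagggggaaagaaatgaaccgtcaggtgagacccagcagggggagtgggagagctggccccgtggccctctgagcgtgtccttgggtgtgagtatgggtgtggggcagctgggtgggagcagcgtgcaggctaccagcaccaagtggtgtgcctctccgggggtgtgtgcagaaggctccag
Motifs were searched on both strands. The cyclic AMP response element, spelled TGACGTCA and the same on both strands, begins 61 bases before the Areg start, and 1.79% of the 32851 promoters of this length in the table held it. The TATA box, searched by the letters TATAAA, lies 31 bases before the Areg start and was held by 13.6% of promoters. The GC box, searched by the letters GGGCGG, occurs in the Areg promoter once on each strand and was held by 35.7% of promoters. The AP-1 motif, searched by the letters TGANTCA, was not matched in either window and was held by 7.81% of promoters. The matches in Areg do not overlap, and the Btc window held no match. These are matches of letters and not measured binding.

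Ereg was a transcript of CCl4 mesenchymal-like cells. The healthy library held 3 Ereg UMIs among its 5602 cells, of which 2 were in mesothelial-like cells and 1 in a cholangiocyte-like cell, and the CCl4 library held 2174, of which 85.4% were in mesenchymal-like cells. In that class the level was 41.7 CPM (39.8 to 43.6, 1856 UMIs), and 845 of 3131 cells (27.0%) had a UMI. In the other CCl4 classes the level was 3.96 CPM in T and NK cell-like, 3.01 in neutrophil-like, 0.964 in macrophage and monocyte-like, 0.883 in mesothelial-like and 0.698 in endothelial-like cells, from 1 to 16 UMIs each. The intervals of these 5 neighbours in the order overlapped, and that of mesenchymal-like cells lay above them all. With each cell thinned to 2000 UMIs, so that depth was equal, the expected share of cells with an Ereg UMI was 6.31% (5.47 to 7.22) in mesenchymal-like, 0.156% in mesothelial-like and 0.101% in endothelial-like cells, after 55, 0 and 76 shallower cells were left out. It was 0.873% (0.0144 to 5.2) of 101 T and NK cell-like cells and 0.0734% (upper limit 3.2) of 119 macrophage and monocyte-like cells, with 11 and 60 shallower cells left out. Both lay below the share that 3 cells would give (2.97% and 2.52%). So did the mesothelial-like and endothelial-like shares (0.321% and 0.528%). Free RNA was not measured apart.

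The 13 healthy mesenchymal-like cells held no Ereg UMI, and at their depth a count of 0 allows up to 14.9 CPM. They are too few for a comparison with the CCl4 cells, and fewer cells of a class cannot be told apart from less RNA per cell in the whole-library totals. A long noncoding RNA, Gm19610, overlaps the Ereg gene by 319 bases at the end with the lower coordinates and was itself counted with 0 healthy and 36 CCl4 UMIs, and reads from the overlap may be assigned to either.

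**Figure D1:**
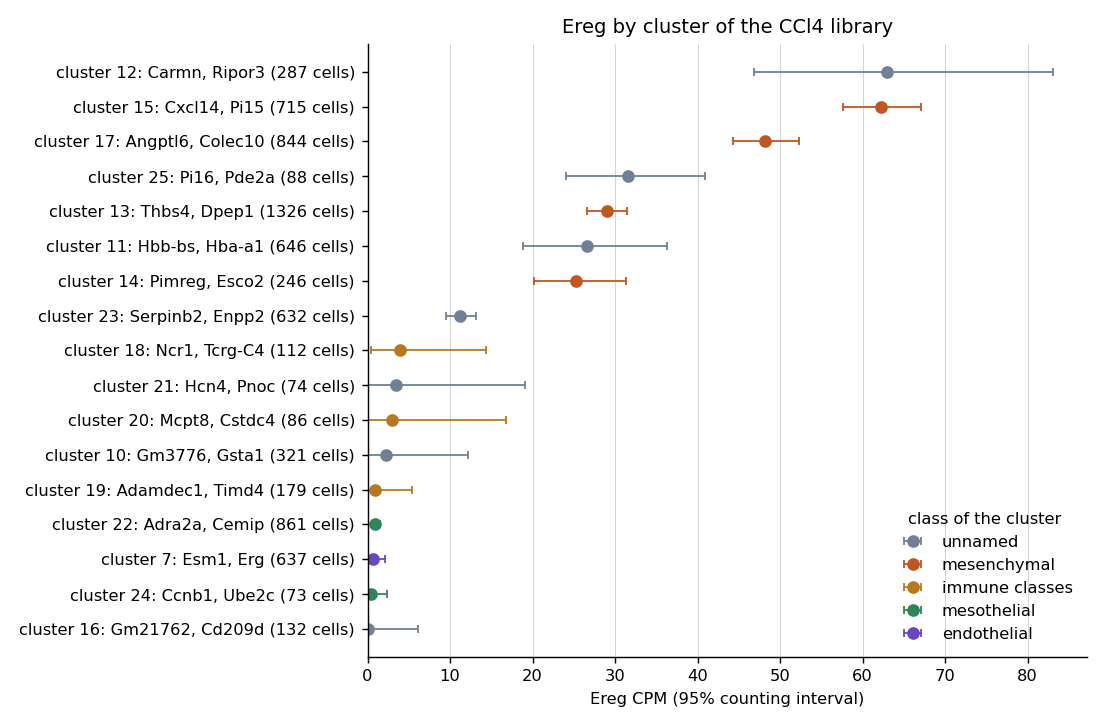
Ereg in the clusters of the CCl4 library with at least 50 cells. Points are CPM of summed UMIs, bars are 95% counting intervals, labels give the 2 leading genes and the number of cells, and colours give the class; the 4 mesenchymal clusters sit between 25.3 and 62.2 CPM.

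Ereg differed among the mesenchymal clusters. The clusters had been formed without it, yet it was among the leading genes of the cluster led by Cxcl14, Pi15 and Bco1, which had 62.2 CPM (57.6 to 67.1) in 715 cells, followed by the cluster led by Angptl6, Colec10 and Rgs5, with 48.2 CPM (44.3 to 52.3) in 844 cells. Lower levels were found in the cluster led by Thbs4, Dpep1 and Mfap4 (29.0 CPM, 26.6 to 31.5, 1326 cells) and in the proliferating cluster led by Pimreg and Cenpf (25.3 CPM, 20.2 to 31.3, 246 cells). The intervals of the first 3 did not overlap, and those of the last 2 did. After thinning, the order was 8.59%, 7.50%, 4.69% and 3.86% of cells, and here the intervals of neighbours in the order overlapped (6.63 to 10.9, 5.81 to 9.49, 3.61 to 5.97 and 1.64 to 7.57). Among these 4 clusters, the Cxcl14 cluster had the highest summed level of a myofibroblast list (Acta2, Tagln, Col1a1 and others, 20911 CPM summed) and the Angptl6 cluster the highest of a stellate list (Lrat, Reln, Rgs5 and others, 6952 CPM), against 11894 and 1513 CPM in the Thbs4 cluster, which had the highest of a portal-type fibroblast list (2261 CPM). Of the unnamed clusters, that of 287 low-UMI cells with mesenchymal markers had 63.0 CPM (46.8 to 83.1, 50 UMIs) and a myofibroblast list level of 24282 CPM. A larger one of 646 low-UMI CCl4 cells had 26.6 CPM of Ereg (18.9 to 36.3, 39 UMIs). It also had mesenchymal markers, but it was led by the hemoglobin genes Hbb-bs and Hba-a1 and was left unnamed for that. The cluster led by Serpinb2, Enpp2 and Fndc1 stood at 11.2 CPM (9.47 to 13.2, 632 cells). That was below every mesenchymal cluster and above both named mesothelial clusters (0.953 and 0.420 CPM).

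Areg was close to undetected. The healthy library held 3 Areg UMIs, all in cholangiocyte-like cells, and the CCl4 library 31. Of these, 8 UMIs lay in 6 cells of an unnamed cluster that mixed dendritic and B cell markers (13.2 CPM, 5.68 to 25.9), 11 lay in the Serpinb2 cluster (0.852 CPM, 0.425 to 1.52), 5 lay in mesothelial-like cells, and T and NK cell-like and macrophage and monocyte-like cells held 2 and 3, in each case within 1 cell. Mesenchymal-like cells, the source of Ereg, held 2 Areg UMIs (0.0449 CPM, 0.00544 to 0.162) against 1856 of Ereg. The intervals of these 2 immune classes and of the mixed dendritic and B cell cluster lay above that of mesenchymal-like cells, but from 1 to 6 cells with a UMI.

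**Figure D2:**
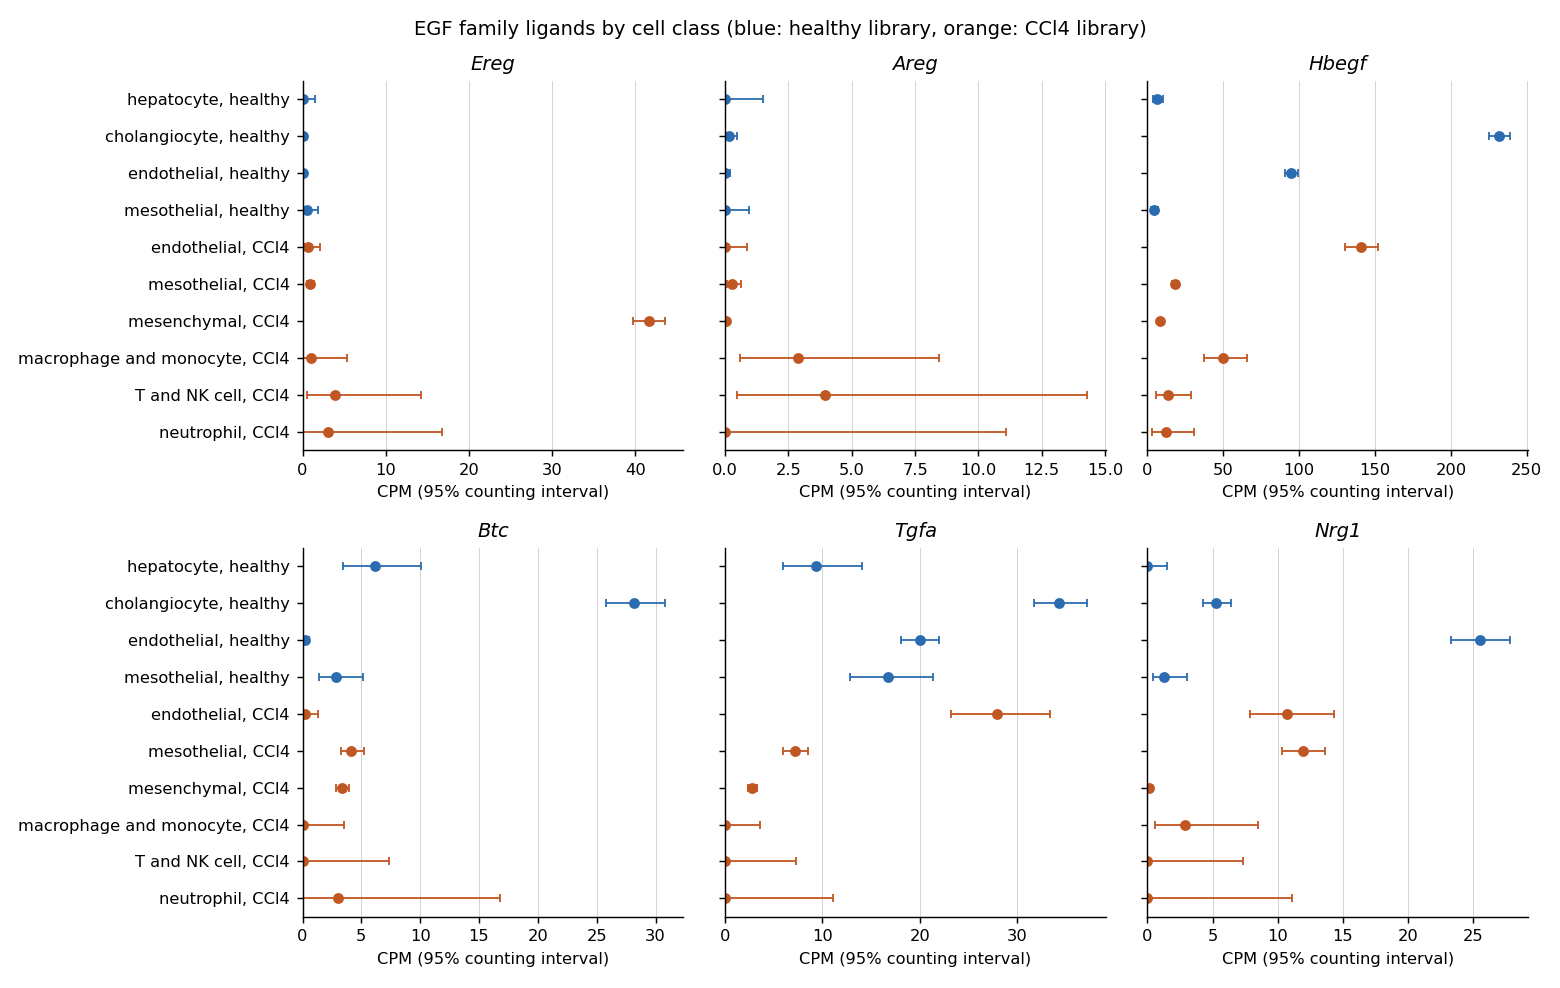
The 6 ligands by cell class and library, for classes of at least 50 cells. Points are CPM of summed UMIs and bars 95% counting intervals, on a separate linear axis per gene; Ereg stands at 41.7 CPM in CCl4 mesenchymal-like cells, and Hbegf, Btc and Tgfa are highest in healthy cholangiocyte-like cells.

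Hbegf (chr18:36504927-36515805), a ligand that binds heparan sulfate and is also an early response gene, was highest in the biliary epithelium. Healthy cholangiocyte-like cells had 232 CPM (225 to 239, 72.6% of cells with a UMI) and held 66.6% of the Hbegf UMIs of that library. Endothelial-like cells followed with 94.8 CPM (90.5 to 99.1), and hepatocyte-like (6.12 CPM) and mesothelial-like cells (4.17 CPM) were lowest, with overlapping intervals. In the CCl4 library the order was endothelial-like cells with 141 CPM (130 to 152), macrophage and monocyte-like with 50.1 (37.5 to 65.8), mesothelial-like with 18.1 (16.2 to 20.2), T and NK cell-like with 13.9, neutrophil-like with 12 and mesenchymal-like with 8.11 CPM (7.30 to 8.99). The 20 CCl4 cholangiocyte-like cells held 42 Hbegf UMIs, or 225 CPM (162 to 304), with an interval that takes in the healthy level. Thinned to 2000 UMIs, 30.9% of healthy cholangiocyte-like cells had an Hbegf UMI, against 15.0% of healthy and 21.6% of CCl4 endothelial-like cells and 1.57% of mesenchymal-like cells.

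Immediate early genes, which cell isolation can also induce, were high in the same class. The 10 genes of a list with Fos, Jun, Egr1 and Atf3 summed to 11893 CPM in healthy cholangiocyte-like, 7864 in healthy endothelial-like, 5964 in healthy mesothelial-like and 1402 in hepatocyte-like cells, and to 8879 in CCl4 mesothelial-like, 7111 in mesenchymal-like and 5284 in CCl4 endothelial-like cells. Their part in the Hbegf levels was not tested.

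Btc and Tgfa, both ligands of Egfr, also had their highest level in cholangiocyte-like cells of the healthy library. Btc stood at 28.2 CPM (25.8 to 30.8, 504 UMIs, 92.3% of the healthy total), against 6.12 in hepatocyte-like, 2.86 in mesothelial-like and 0.201 CPM in endothelial-like cells. Among CCl4 cells it was low throughout, with 4.14 CPM in mesothelial-like and 3.37 in mesenchymal-like cells, whose intervals overlapped, and 9.83 CPM (8.20 to 11.7, 127 UMIs) in the unnamed Serpinb2 cluster. Tgfa (chr6:86195038-86275744) was more evenly spread. It stood at 34.3 CPM (31.7 to 37.2) in cholangiocyte-like, 20 (18.1 to 22.0) in endothelial-like, 16.7 (12.8 to 21.3) in mesothelial-like and 9.39 CPM (5.95 to 14.1) in hepatocyte-like cells of the healthy library, where only the first was apart from its neighbour. In the CCl4 library it was 27.9 CPM (23.2 to 33.4) in endothelial-like, 7.18 in mesothelial-like and 2.79 in mesenchymal-like cells. The 3 immune classes held no Tgfa UMI. A count of 0 allows up to 5.95 CPM in T and NK cell-like, 2.89 in macrophage and monocyte-like and 9.03 in neutrophil-like cells. These limits lie above the mesenchymal-like level, so the zeros do not place these classes below it.

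Nrg1 (chr8:31807452-32891609), the neuregulin of this set, was concentrated in 1 endothelial cluster. Healthy endothelial-like cells together had 25.5 CPM (23.3 to 27.8, 508 UMIs), but 385 of these UMIs came from the 222 cells of the cluster led by Bmx, Gja5 and Vwf, genes of arteries and larger vessels, where the level was 208 CPM (188 to 230) and 45.5% of cells had a UMI. The other 3 large endothelial clusters, which had the sinusoidal gene Clec4g among their leading genes, had 5.75, 9.02 and 6.68 CPM. Cholangiocyte-like cells had 5.26 CPM, mesothelial-like cells 1.30, and hepatocyte-like cells no UMI, where a count of 0 allows up to 1.22 CPM. In the CCl4 library the highest Nrg1 levels were in mesothelial-like cells (11.9 CPM, 10.3 to 13.6, 215 UMIs) and endothelial-like cells (10.7 CPM, 7.84 to 14.3, 46 UMIs in 12 cells), with overlapping intervals, while mesenchymal-like cells held 7 UMIs in all (0.157 CPM). The other ligands were not high in the Bmx cluster. Its Hbegf level of 70.3 CPM (58.8 to 83.5) overlapped that of the cluster led by Cyp4b1 and Fcgr2b (81.7 CPM, 72.2 to 92.0), and its Tgfa level of 9.20 CPM (5.36 to 14.7) was the lowest of the 4 healthy clusters.

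**Figure D3:**
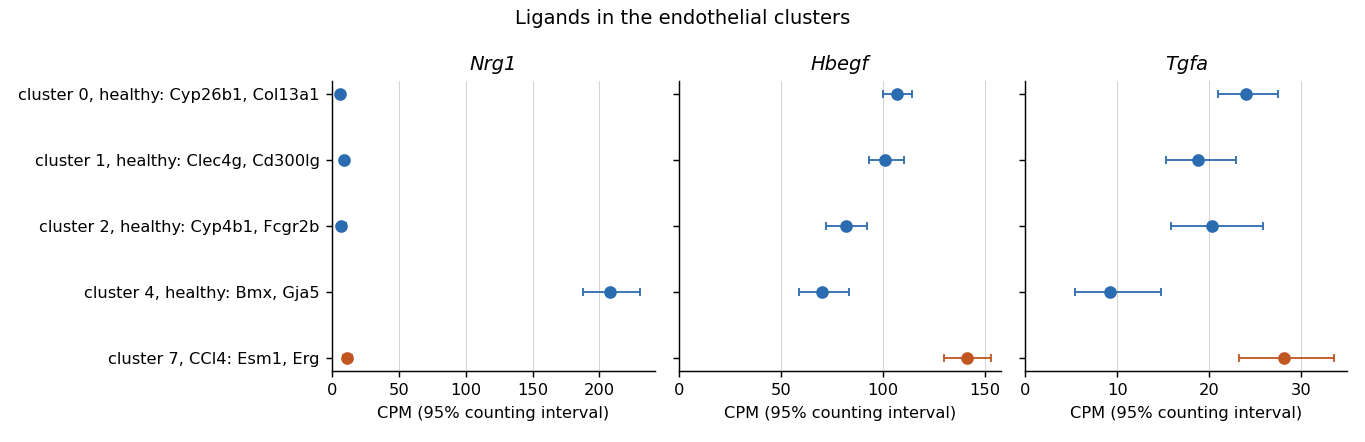
Nrg1, Hbegf and Tgfa in the endothelial clusters that hold at least 50 cells of a library. Points are CPM and bars 95% counting intervals on linear axes; the healthy cluster led by Bmx and Gja5 reaches 208 CPM of Nrg1, and the CCl4 cluster led by Esm1 and Erg has 10.8 CPM.

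Egfr (chr11:16752203-16913907), the receptor for 5 of the ligands, was highest in hepatocyte-like cells of the healthy library and in mesothelial-like cells of the CCl4 library. Hepatocyte-like cells had 219 CPM (201 to 239), from 537 UMIs in 72 of 157 cells (45.9%), and 152 to 278 CPM over 5 alternatives. Mesothelial-like cells had 33.9 (28.3 to 40.2), cholangiocyte-like cells 24.1 (21.9 to 26.5) and endothelial-like cells 2.51 CPM (1.86 to 3.31), and each of these 4 healthy levels was apart from the next. Hepatocyte markers summed to 112796 CPM in hepatocyte-like, 10123 in cholangiocyte-like, 1640 in endothelial-like and 699 CPM in mesothelial-like cells of that library, and their part in the cholangiocyte Egfr level was not tested. In the CCl4 library mesothelial-like cells had 106 CPM (101 to 111, 79.6% of cells with a UMI) and mesenchymal-like cells 38.7 CPM (36.9 to 40.5, 39.6% of cells). Neutrophil-like (15.0 CPM) and T and NK cell-like cells (13.9 CPM) followed from 5 UMIs in 1 cell and 7 UMIs in 4 cells, and endothelial-like cells (3.02 CPM) and macrophage and monocyte-like cells (1.93 CPM) were lowest. Endothelial-like cells were below the rest of their library for Egfr in both libraries (2.51 against 43.4 CPM in the healthy and 3.02 against 60.6 CPM in the CCl4 library). For Hbegf they were below the rest in the healthy library (94.8 against 166 CPM) and above it in the CCl4 library (141 against 12.9 CPM), and so they were for Tgfa (20 against 27.9 and 27.9 against 5.33 CPM). Mesenchymal-like cells as a class had both Egfr and Ereg. Among the mesenchymal clusters Egfr had another order than Ereg, with 42.6 CPM (39.7 to 45.6) in the Thbs4 cluster, 40.0 (36.3 to 44.0) in the Cxcl14 cluster, 34.7 (31.4 to 38.2) in the Angptl6 cluster and 26.5 CPM (21.3 to 32.6) in the proliferating cluster. The unnamed Serpinb2 cluster had 89.9 CPM (84.8 to 95.2) and 72.0% of cells with an Egfr UMI. An RNA within the gene, Egfros, was counted apart with 25 healthy and 143 CCl4 UMIs.

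**Figure D4:**
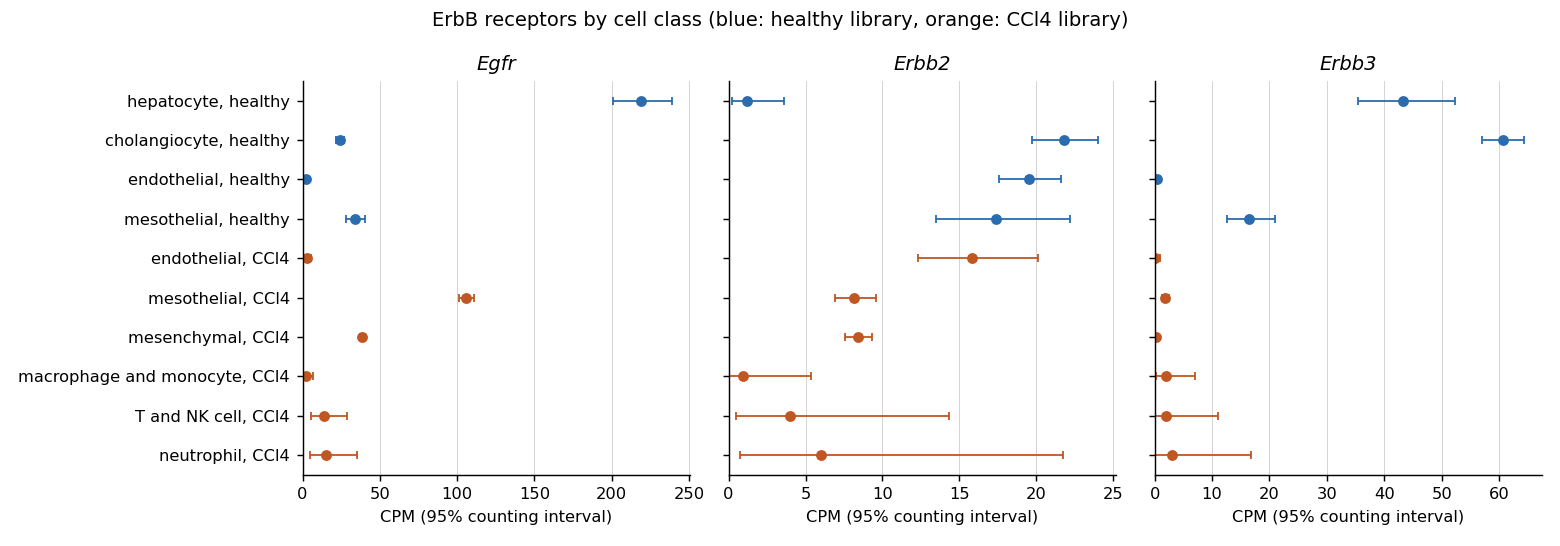
The 3 receptors by cell class and library, for classes of at least 50 cells. Points are CPM of summed UMIs and bars 95% counting intervals, on a separate linear axis per gene; Egfr reaches 219 CPM in healthy hepatocyte-like cells, and Erbb3 60.6 CPM in healthy cholangiocyte-like cells.

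Erbb2 (chr11:98412484-98437716), the receptor without a ligand, was spread over the cholangiocyte, endothelial and mesothelial classes. In the healthy library it had 21.8 CPM (19.7 to 24.0) in cholangiocyte-like, 19.5 (17.6 to 21.6) in endothelial-like and 17.4 (13.5 to 22.2) in mesothelial-like cells, with overlapping intervals, and 1.22 CPM (0.252 to 3.58, 3 UMIs) in hepatocyte-like cells. In the CCl4 library endothelial-like cells had 15.8 CPM (12.3 to 20.1), and mesenchymal-like (8.43 CPM) and mesothelial-like cells (8.17 CPM) did not differ beyond their intervals. Erbb3 (chr10:128567523-128589635), a neuregulin receptor, was highest in the epithelial classes. It stood at 60.6 CPM (57.0 to 64.3) in cholangiocyte-like, 43.3 (35.4 to 52.3) in hepatocyte-like and 16.4 CPM (12.6 to 21.0) in mesothelial-like cells, and at 0.502 CPM in endothelial-like cells. The unnamed healthy cluster of 182 low-UMI cells with cholangiocyte markers had 118 CPM (87.3 to 157). CCl4 cells were nearly devoid of Erbb3, with 78 UMIs in all against 1321 in the healthy library. The 20 CCl4 cholangiocyte-like cells held 10 of them (53.5 CPM, 25.7 to 98.5), an interval that takes in the healthy level, and 3131 mesenchymal-like cells held 11 (0.247 CPM).

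Among the 6 other genes of the family, Erbb4, the second neuregulin receptor, followed the cholangiocytes, with 34.0 CPM (31.4 to 36.8, 608 UMIs) in healthy cholangiocyte-like cells, 2.04 CPM in hepatocyte-like cells and no UMI in any CCl4 class of at least 50 cells. Nrg2, another neuregulin, was a mesothelial transcript in both libraries, with 29.7 CPM (24.5 to 35.7) in healthy and 26.4 CPM (24.1 to 28.9) in CCl4 mesothelial-like cells. Egf itself did not exceed 2.08 CPM in a class of at least 50 cells, Epgn did not exceed 0.168 CPM, Nrg3 had no UMI, and Nrg4 had 3.67 CPM (1.68 to 6.97, 9 UMIs) in hepatocyte-like cells.

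A member was counted as above the rest where its CPM in a class exceeded that of the library's remaining cells by 2 times or more, with an interval that left out 1, over genes with at least 10 UMIs in the library. This gave 3 of the 9 members for healthy cholangiocyte-like cells (Hbegf, Btc and Erbb3), where 19.4% of all genes tested passed. It gave Nrg1 alone for healthy endothelial-like cells (16.9% of all genes), Egfr alone for hepatocyte-like cells (8.54%), and none for healthy mesothelial-like cells (10.6%). Ereg passed the ratio in the latter (22, 1.14 to 1297) but was not counted, with 3 UMIs in that library. In the CCl4 library it gave Ereg alone for mesenchymal-like cells (9.95%), Nrg1, Egfr and Erbb3 for mesothelial-like cells (10.8%), Hbegf, Tgfa, Nrg1 and Erbb2 for endothelial-like cells (12.3%), Hbegf and Areg for macrophage and monocyte-like cells (10.6%), Areg alone for T and NK cell-like cells (8.04%) and none for neutrophil-like cells (8.64%). Both Areg calls rest on 1 cell each. These ratios depend on which other cells a library holds.

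Mesothelial-like cells, the lining of the liver surface, were set as the class in which to compare the libraries, with 231 healthy and 934 CCl4 cells. Nearly all came from different clusters, the healthy cells from 1 led by Slc26a3 and Igfbp5 and the CCl4 cells from 1 led by Adra2a, Cemip and Prg4 and a small one of 73 cells led by cell cycle genes. Past the fold means at least 2 times higher or lower with an interval that leaves out 1, over genes with at least 10 UMIs. Of the 8 members with enough UMIs 6 were past the fold, 3 each way, while 12.7% of all 13656 genes tested were higher and 12.5% lower, or 25.2% either way. Hbegf was higher in the CCl4 cells, with 18.1 against 4.17 CPM (ratio 4.34, 2.64 to 7.69), as were Nrg1 with 11.9 against 1.30 CPM (9.11, 3.85 to 28.4) and Egfr with 106 against 33.9 CPM (3.14, 2.62 to 3.77). Tgfa was lower, with 7.18 against 16.7 CPM (ratio 0.431, 0.317 to 0.590), Erbb2 with 8.17 against 17.4 CPM (0.468, 0.349 to 0.635), and Erbb3 with 1.77 against 16.4 CPM (0.108, 0.0681 to 0.167). Ereg (1.70, 0.399 to 15.2) and Btc (1.45, 0.763 to 3.02) were not past the fold, and Areg had too few UMIs. Without the small cell cycle cluster 6 members were again past the fold. The call for Tgfa was lost when every cell weighed the same (0.567) and when the lowest class level was subtracted as background (0.985), that for Erbb2 was lost under 3 other scalings (0.502 to 0.519), and Ereg ranged from 0.355 with the lowest class level subtracted to 6.53 without doublet removal, where it passed the fold. Btc ranged from 0.779 with 30 principal components to 1.58, and was 0.976 without the small cell cycle cluster.

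**Figure D5:**
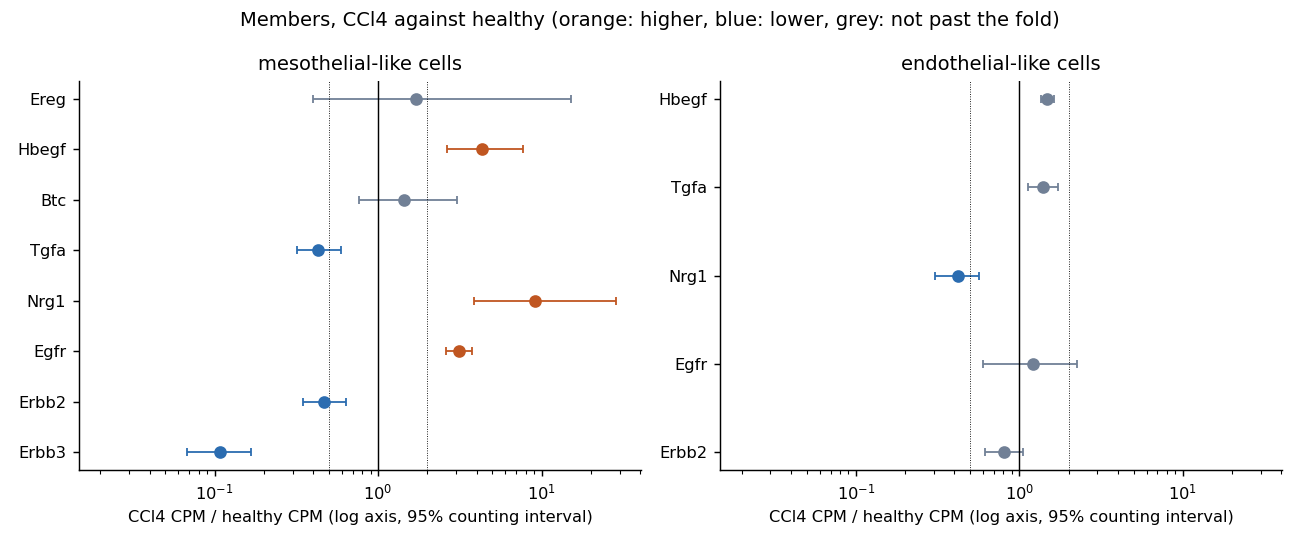
Ratio of CPM in CCl4 over healthy cells for the members with at least 10 UMIs and a UMI in both libraries, in mesothelial-like (left) and endothelial-like cells (right). The axis is logarithmic, bars are 95% counting intervals and dotted lines mark 2-fold; Nrg1 is at 9.11 on the left and 0.42 on the right.

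Markers of other classes differed between these cells too. Between healthy and CCl4 mesothelial-like cells the summed level of the mesothelial markers was 44509 and 17167 CPM (18 of 18 detected in both), that of hepatocyte markers 699 and 55.2, of cholangiocyte markers 4168 and 2182, of endothelial markers 466 and 94.3, and of mesenchymal markers 10942 and 10364 CPM. Single stellate genes were nevertheless higher in the CCl4 cells, such as Reln with 12.9 against 0.260 CPM, 5 of 8 stellate genes in all. Their part in the member ratios was not tested. The Egfr level in CCl4 mesothelial-like cells (106 CPM) was above that in the mesenchymal-like cells of the same library (38.7 CPM), which held the fewer Nrg1 UMIs as well (7 against 215).

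Pathway genes around the receptors differed in both directions in mesothelial-like cells, and so did genes at large. Of all genes tested 12.7% were higher and 12.5% lower, and the counts of the small lists below were not tested against these shares. In a list of 10 genes induced through ERK, the kinase downstream of Egfr, 5 were higher and 1 was lower in CCl4 cells. Phlda1 was at 122 against 1.04 CPM (2214 and 4 UMIs, ratio 117, 45.8 to 431) and Fosl1, an AP-1 subunit, at 4.69 against 0.260 CPM from 85 and 1 UMIs, while Ccnd1, which encodes cyclin D1, was lower (0.460, 0.388 to 0.546). Of 9 genes that restrain the receptors or their signal 2 were higher, Spry4 (9.56, 4.99 to 21.1) and Errfi1, a direct inhibitor of Egfr (2.32, 1.73 to 3.19), and Spry2 was lower (0.366, 0.319 to 0.420). Of 6 ligand release genes Rhbdf2, a partner of Adam17, was higher (2.63, 1.60 to 4.60). Of 6 adaptors Gab1 was lower (0.361, 0.305 to 0.429). Immediate early genes were higher in 3 of 10 cases, led by Ier2 (2.92, 2.67 to 3.21). All 6 proliferation genes were higher, such as Top2a with 1127 against 1 UMI. However, the CCl4 class takes in the 73 cells led by cell cycle genes, a cluster without healthy cells. Ccnb1 and Birc5 of the proliferation list were among its leading genes, so these ratios are no separate finding. Ratios of this list without that cluster are not given here. Of the stromal lists, 4 of 8 myofibroblast genes were higher, led by Postn (19.0, 5.18 to 158), and Spp1 was lower (0.141, 0.121 to 0.164), 2 of 7 portal-type fibroblast genes tested were higher and 3 lower, with Cd34 the lowest (0.342, 0.316 to 0.370), and none of 3 smooth muscle genes passed. Median log2 ratios were 1.10 for the ERK list, 0.40 for the restraint list, 0.35 for ligand release and -0.04 for all genes tested.

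Endothelial-like cells had enough cells in both libraries as well, 3082 healthy and 644 CCl4, and this comparison was added after the class sizes were known. Nearly all CCl4 cells came from 1 cluster led by Esm1 and Erg, which held 36 healthy cells. Of the 6 members with at least 10 UMIs 1 was past the fold, against 6.07% of all 13287 genes tested higher and 16.0% lower, or 22.0% either way. Nrg1 was lower, with 10.7 against 25.5 CPM (ratio 0.420, 0.304 to 0.569). Without the Bmx cluster, which held no CCl4 cells, the healthy level was 6.80 CPM (5.65 to 8.12) and the ratio 1.57 (1.10 to 2.22), which is not past the fold. Only healthy cells were left out there. CCl4 cells of larger vessels, if any, stayed in the other clusters, so this ratio does not compare like with like. The CCl4 level came from 46 UMIs in 12 cells. Nrg1 was also not past the fold when every cell weighed the same (0.646). Hbegf (1.48, 1.35 to 1.63) and Tgfa (1.40, 1.13 to 1.72) were higher by less than 2-fold. The 36 healthy cells of the Esm1 cluster had 5.02 CPM of Hbegf (1.04 to 14.7) from 3 UMIs. When each library was clustered on its own the ratios were 0.931 for Hbegf, 1.06 for Tgfa and 0.183 for Nrg1, and Egfr passed the fold (5.35). With the lowest class level subtracted Tgfa passed it too (2.64). Egfr (1.21, 0.601 to 2.25) and Erbb2 (0.811, 0.617 to 1.05) were not past the fold, and Erbb3 had 10 healthy UMIs and none in CCl4 cells, where a count of 0 allows up to 0.698 CPM.

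The CCl4 endothelial-like cells also carried 26368 CPM of erythroid marker UMIs against 16.0 in the healthy cells, and 5199 against 1826 CPM of mesenchymal markers, and the part of either in the member ratios was not tested. Of all genes tested in this class 6.07% were higher and 16.0% lower, and the list counts below were not tested against these shares. In the ERK list 4 of 8 genes tested were higher, led by Myc (15.4, 12.4 to 19.3) and Ccnd1 (5.69, 5.40 to 5.99), the latter opposite to its direction in mesothelial-like cells. Of the 9 restraint genes Lrig1 (0.386), Lrig3 (0.497) and Spry1 (0.428) were lower. Rhbdf2 alone was higher of 6 ligand release genes (2.26, 1.72 to 2.96), and Gab2 alone of 6 adaptors (2.17, 1.76 to 2.65). Nr4a1 was higher (3.34) and Fosb lower (0.348) among the 10 immediate early genes. Of the stromal lists, 6 of 8 myofibroblast, 4 of 8 stellate and 4 of 7 portal-type fibroblast genes tested were higher and 1 of each list was lower, and 2 of 2 smooth muscle and 4 of 4 proliferation genes tested were higher. In neither class did any of the 2 other family genes tested pass the fold.

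Finally, genes with the most similar level profile were sought for each member over 27 populations, the clusters by library with at least 50 cells, among 13289 genes with at least 200 UMIs. The populations share 2 libraries and their depths, so these correlations are descriptions across populations. Ereg was followed most closely by Epha3, Pde1a, Gpc6, Pcdh18 and Ms4a4d (Pearson r 0.978 to 0.962 of log2(CPM + 10)), and Nrg1 by Sncg, Tnni3, Grrp1, Gja5 and Syt15 (0.939 to 0.897). The closest profiles to Hbegf were those of Ly6g6d, Tspan14, Fnbp1l, Kcnq1 and Slc43a2 (0.897 to 0.875), to Tgfa those of Tmx2, F11r, Adgrg1, Ctnnb1 and Magi3 (0.865 to 0.847) and to Btc those of Etv4, Aqp5, Ankrd42, Itgb8 and Zfhx4 (0.879 to 0.788). Among the receptors, Erbb3 was followed by Slc25a48, Klhdc7a and Syt1 (0.931 to 0.914), Erbb2 by Magi1, Zfp780b, Vsig10, Fcsk and Cog3 (0.915 to 0.870), and Egfr, the least well matched, by Sdc4, Myorg, C4b, Irs1 and Angptl4 (0.843 to 0.774). For Areg, with 34 UMIs in all, the profile of Ighm and other B cell genes (Cd79b, Ccr9, Tnfrsf13b and Arl5c, 0.983 to 0.926) rested on 8 UMIs of 1 cluster.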

How the data were processed

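Liver cells of healthy and CCl4-injured mice were measured by 10x Genomics 3' single-cell RNA sequencing, 1 library each. The authors deposited whole-number UMI counts per gene and barcode without normalization, written by Cell Ranger 3.1.0 (healthy, 31053 genes, 6297 cells, 51122846 UMIs) and 6.0.1 (CCl4, 32285 genes, 8460 cells, 97611831 UMIs). The submitters' processing notes name a human and a mouse build (GRCh38 and mm10), and the mouse gene identifiers fit the latter, so RefSeq positions on GRCm38.p6 are given as annotation only. Groups were taken from the sample titles.

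Members, lists and markers were chosen with earlier results of these data known. Cells with at least 500 UMIs, 200 genes and at most 30% mitochondrial UMIs were kept, and the highest Scrublet scores were removed (0.8% per 1000 cells, 277 healthy and 487 CCl4 barcodes). The libraries entered 1 joint clustering (scanpy 1.11.5, python 3.11.15, 2000 variable genes, 10 principal components, 20 neighbours, Leiden resolution 1, seed 1) without 56 member and pathway genes. A marker counted at 2 times the CPM of other cells and in 10% of cells. A name needed 3 markers, 2 times those of the next class (set after the clusters were seen), and no low UMI count without a marker among the 10 leading genes. No name was given where another class had more markers among those leading genes. Such rebuilt names can differ from those of the study.

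UMIs were summed per class and library, with exact Poisson intervals for CPM, exact conditional binomial intervals for ratios and exact binomial intervals for shares (scipy 1.17.1). A count of 0 was taken to allow 3 counts. No test was made, because cells are not replicates. List genes were named by the highest and lowest ratio past the fold, and 5 profile neighbours per member by correlation, of which some are not reported here. The ratio and thinning steps were tested on simulated data. These had the same counting error that the intervals assume, so UMIs crowded into few cells were not tested. Alternatives were other filters, clusterings and scalings, among them TMM factors (edgeR 4.0.16, R 4.3.3). Genes of both libraries were matched by Ensembl identifier, and overlapping genes were left as the authors counted them.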

Additional observations from a re-analysis of the deposited data

Results flagged for a closer look

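Nrg1 went in opposite directions between the libraries in the 2 classes compared. Its CCl4 level was 9.11 times the healthy one in mesothelial-like cells and 0.42 times in endothelial-like cells, each with 1 library per group, and the difference between the 2 ratios was not tested. In endothelial-like cells the healthy level rested on the cluster led by Bmx, Gja5 and Vwf, which held 385 of 508 Nrg1 UMIs. Without that cluster the ratio was 1.57, but only healthy cells were left out with it. In mesothelial-like cells Nrg1 was past the fold in 11 of 11 alternatives, with ratios of 9.11 to 13.3. The mesothelial value rests on 5 healthy UMIs. Groups of 1 library allowed no check for samples far from the others.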

How the results depend on the processing

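In all 14 alternatives were tried, of which 5 to 11 gave a value for any 1 result, and 4 were chosen after the data were seen, as was the endothelial comparison. Ereg in CCl4 mesenchymal-like cells (41.7 CPM) left its counting interval in 2 of them, with 37.3 CPM when every cell weighed the same and 55.9 CPM without the 50 most abundant genes. The share of mesenchymal-like cells in the CCl4 library (42.8%) was 45.7% with a mitochondrial limit of 10%, 45.5% with at least 1000 UMIs per cell and 48.1% without doublet removal. It was 39.6% with 30 principal components and 38.8% when each library was clustered on its own. It was 55.6% with the unnamed low-UMI clusters whose markers were mostly mesenchymal, among them the cluster led by Hbb-bs and Hba-a1. The count of members past the fold in mesothelial-like cells was 6 and ranged from 4 to 7, and Hbegf, Nrg1, Egfr and Erbb3 kept their calls in every alternative that gave a ratio. All genes past the fold there numbered 3437, and 7047 with the lowest class level subtracted. In endothelial-like cells the 1 member past the fold became 4 when each library was clustered on its own and 3 with the lowest class level subtracted. The count was 2 without a filter on low counts and 0 when every cell weighed the same. It was also 0 without the cluster led by Bmx, Gja5 and Vwf, where only healthy cells were left out and Nrg1 stood at 1.57. All genes past the fold numbered 2929 there, and 5778 with the lowest class level subtracted. Of the single levels and ratios, 231 stayed within the main interval, 63 moved out of it and 1 reversed, and the causes were not tested. The reversed value was the Nrg1 ratio in endothelial-like cells, at 1.57 without the cluster led by Bmx, Gja5 and Vwf. Clustering each library on its own named no healthy mesothelial cluster, so that setting gave no mesothelial ratio, without doublet removal no class of at least 50 CCl4 endothelial-like cells was named, and the mitochondrial limit of 10% left no hepatocyte-like cluster. No paired analysis was possible because each group is 1 library. The Areg values rest on 34 UMIs over both libraries, the healthy Ereg values on 3 and the CCl4 Erbb3 values on 78.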

Other observations

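Among the clusters without a class name, the 632 CCl4 cells led by Serpinb2, Enpp2, Fndc1, Chl1 and Cxcl5 carried several members at once. They had 89.9 CPM of Egfr, 11.2 CPM of Ereg, 9.83 CPM of Btc and 11 of the 31 Areg UMIs of the library, with 3 mesothelial and 3 neutrophil markers counted. A cluster of 88 CCl4 cells with 9 mesenchymal and 6 endothelial markers had 31.6 CPM of Ereg (24.0 to 40.9) together with 79.0 CPM of Hbegf (66.7 to 93.0), the levels of which were 41.7 and 8.11 CPM in mesenchymal-like and 0.698 and 141 CPM in endothelial-like cells. Its cells had 1.76 times the median UMIs of their library. The 182 healthy low-UMI cells with cholangiocyte markers had 170 CPM of Hbegf (132 to 215), 49.3 CPM of Erbb2 (30.1 to 76.2) and 118 CPM of Erbb3.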
